A study of Mus musculus with 12 samples.

Results

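Kinesins are motor proteins that walk along microtubules, or in some families take microtubules apart from their ends. The 51 genes described here are the measured kinesins together with the proteins that build the mitotic spindle and divide the cell. They were taken from 25206 probe sets by symbol: 38 whose symbol starts with Kif and a digit, and 13 added by name (Tpx2, Nusap1, Prc1, Anln, Ect2, Racgap1, Ckap2, Ckap5, Kifc1, Hmmr, Spag5, Tacc3 and Aspm). Each had 1 probe set. By role they fell into 14 mitotic kinesins, 8 spindle assembly proteins, 4 cytokinesis proteins, 24 kinesins with a transport, ciliary or other role, and the pseudogene Kif4-ps.

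Expression was measured on Affymetrix arrays in female mouse cells of C57BL/6 background. The cells were of 2 types, embryonic (ESC) and induced pluripotent (iPSC, reprogrammed from somatic cells). Flow sorting split each type into TMRM-low and TMRM-high cells, which gives 4 groups. TMRM is tetramethylrhodamine methyl ester, a fluorescent cation that accumulates in mitochondria with their membrane potential. All cells were grown undifferentiated without serum or feeders in 2iLIF medium, so the groups shared strain, sex and medium, and the labels give neither the number of lines or clones nor the method of reprogramming. Each group held 3 arrays, which carry the replicate numbers 2, 3 and 4. The labels do not say whether the 3 arrays of a group are separate cultures, and so the p-values reflect how far these samples differ among themselves, and that spread may be only technical.

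Values are log2 expression after robust multi-array averaging by the submitters, and differences are log2 of high over low with their standard error (SE). Array medians lay between 3.51 and 3.61, and 48 of the 51 genes had a mean above the lower quartile of all probe set means (Kif2b, Kif27 and Kif4-ps did not). All 9 pluripotency markers were measured, and their summed linear level lay between 4887 and 5519 in ESC low, 4883 and 5295 in ESC high, 5339 and 6035 in iPSC low, and 5293 and 5702 in iPSC high. None of these 9, of 7 fibroblast, 6 neuron, 5 endoderm or 4 ciliated cell markers passed the test between the fractions. The 7 fibroblast markers summed to 52.5 to 62.9 in ESC low, 53.7 to 56.7 in ESC high, 55.0 to 58.0 in iPSC low and 58.2 to 61.4 in iPSC high. The 6 neuron markers summed higher, to 618 to 902 in ESC low and 635 to 908 in ESC high. In iPSC they summed to 624 to 670 in low and 606 to 686 in high. Over all 4 groups the endoderm markers summed to 53.7 to 75.4 and the ciliated cell markers to 46.3 to 66.0. The values have no true zero, so no marker could be called absent.

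In mitosis, plus-end motors slide spindle poles apart, depolymerising kinesins trim microtubule ends, and chromokinesins push chromosome arms toward the equator. After anaphase, Prc1 bundles the central spindle, centralspindlin (Kif23 with Racgap1) gathers there, and Ect2 then activates RhoA so that a contractile ring forms. Pluripotent stem cells divide rapidly with short gap phases. Many mitotic genes are transcribed late in the cycle through a promoter element, the cell cycle genes homology region (CHR), bound by the MuvB core of the DREAM and MYB-MuvB complexes, often with boxes for the factor NF-Y upstream.

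The promoter windows of the genes hold these elements in different ways, and a few are shown so that genes that rose can be set beside genes that did not pass. Each stretch runs 5′ to 3′ from 100 bases before the annotated start to 30 after it, from RefSeq (GRCm38.p6). Capitals mark TTTGAA (the CHR), TTTAAA (a CHR variant) and CCAAT (the NF-Y box), on either strand, so that TTCAAA and ATTGG are the first and the third read from the other strand. TTCCCGC (an E2F site) was not marked and is in none of the windows of the genes shown. The first 6 genes rose in the high fraction and have a CHR near the start:
Prc1, chr7:80294351-80294480, plus strand: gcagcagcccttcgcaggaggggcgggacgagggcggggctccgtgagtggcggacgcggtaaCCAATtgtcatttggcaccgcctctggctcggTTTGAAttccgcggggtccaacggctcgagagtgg
Kif18b, chr11:102925095-102925224, minus strand: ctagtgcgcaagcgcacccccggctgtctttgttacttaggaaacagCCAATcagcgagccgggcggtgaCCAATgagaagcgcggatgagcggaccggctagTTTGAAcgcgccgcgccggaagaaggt
Kif23, chr9:61946770-61946899, minus strand: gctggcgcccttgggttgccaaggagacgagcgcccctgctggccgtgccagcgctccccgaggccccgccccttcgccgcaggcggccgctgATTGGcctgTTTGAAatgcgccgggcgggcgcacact
Racgap1, chr15:99651627-99651756, minus strand: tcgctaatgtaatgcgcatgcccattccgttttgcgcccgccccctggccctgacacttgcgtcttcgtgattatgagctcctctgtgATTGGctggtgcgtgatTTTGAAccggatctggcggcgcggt
Spag5, chr11:78301491-78301620, plus strand: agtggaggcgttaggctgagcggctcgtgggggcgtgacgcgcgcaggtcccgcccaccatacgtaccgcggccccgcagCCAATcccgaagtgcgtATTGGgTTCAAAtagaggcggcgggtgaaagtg
Kif11, chr19:37376282-37376411, plus strand: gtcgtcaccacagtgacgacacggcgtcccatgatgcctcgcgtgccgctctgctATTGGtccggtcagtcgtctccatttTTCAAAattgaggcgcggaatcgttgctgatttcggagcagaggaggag

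Nusap1 and Kif18a also rose, and their windows hold neither TTTGAA nor CCAAT:
Nusap1, chr2:119618198-119618327, plus strand: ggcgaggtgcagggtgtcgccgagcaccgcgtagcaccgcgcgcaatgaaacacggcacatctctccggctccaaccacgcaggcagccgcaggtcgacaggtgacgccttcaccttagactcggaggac
Kif18a, chr2:109280638-109280767, plus strand: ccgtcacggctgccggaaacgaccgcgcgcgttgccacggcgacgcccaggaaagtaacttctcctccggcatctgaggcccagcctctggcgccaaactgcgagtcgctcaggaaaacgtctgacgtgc

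Kif15 and Kifc1 did not pass the test in either direction, although both windows hold TTTGAA near the start:
Kif15, chr9:122950981-122951110, plus strand: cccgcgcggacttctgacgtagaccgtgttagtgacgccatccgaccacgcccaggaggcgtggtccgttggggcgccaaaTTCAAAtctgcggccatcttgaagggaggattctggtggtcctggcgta
Kifc1, chr17:33890604-33890733, minus strand: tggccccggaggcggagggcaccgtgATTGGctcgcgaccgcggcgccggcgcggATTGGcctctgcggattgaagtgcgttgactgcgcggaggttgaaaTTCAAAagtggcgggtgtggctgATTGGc

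Over both cell types, 13 of the 51 genes (25.5%) rose in the TMRM-high fraction and 0 fell. The background over all probe sets was 2.5%, of which 1.6% were higher and 0.905% lower (403 and 228 probe sets; limma, adjusted p under 0.05). With each array centred on its median, 361 probe sets were higher and 368 lower, and the same 13 genes rose. Of the 26 spindle and cytokinesis genes, 12 rose, 0 fell and 14 did not pass, with a median log2 difference of 0.30. Of the 24 other kinesins only Kif12 rose, and their median was -0.00065, beside 0.0029 over all probe sets. At an unadjusted p under 0.05, 26 of the 51 genes passed in either direction, against 15.6% of all probe sets. In bulk RNA, more cells in mitosis in the high fraction and more RNA of these genes per cell cannot be told apart.

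**Figure D1:**
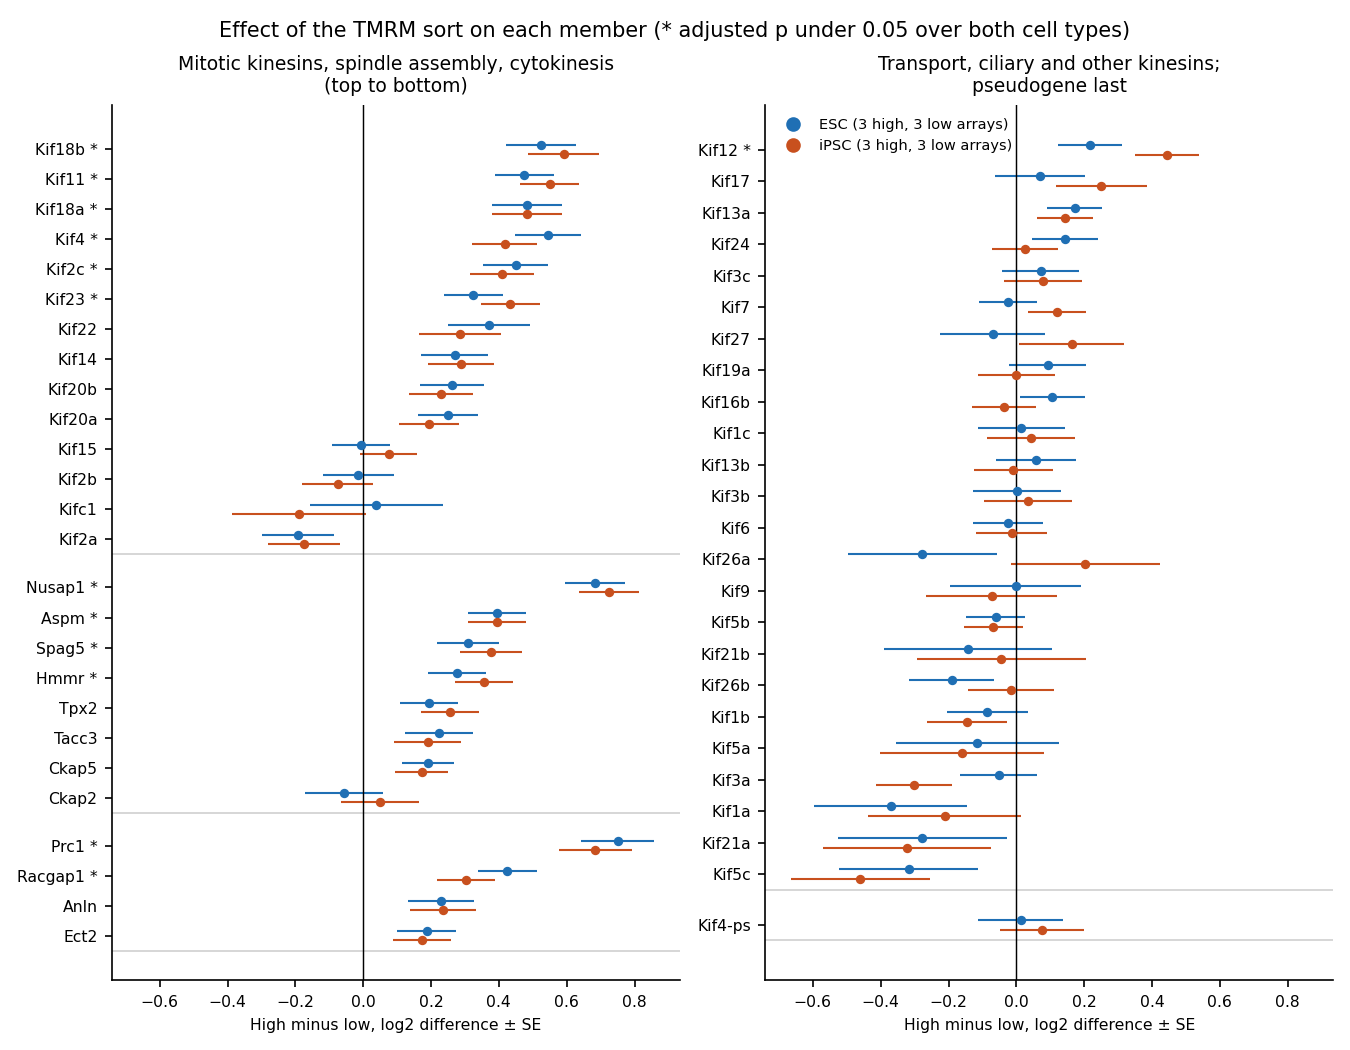
High minus low log2 difference (x axis, points, bars ± SE) of each of the 51 genes in ESC (blue) and iPSC (orange), mitotic genes on the left and other kinesins on the right. Asterisks mark the 13 genes past the threshold over both cell types, 12 of them on the left. The averages of those 12 over both cell types, which are not plotted, run from 0.32 for Hmmr to 0.72 for Prc1.

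The mean of the 12 mitotic genes that rose was 7.39 to 7.43 on the ESC low arrays and 7.77 to 7.98 on the ESC high arrays. In iPSC it was 7.47 to 7.52 on the low arrays and 7.93 to 8.00 on the high arrays. These genes were averaged because they passed, so the gap describes them and is no further test. For 19 of the 26 mitotic genes every high array lay above every low array within both cell types, which 1.98% of all probe sets did. None of the 51 genes had every high array below every low array in both, against 1.83%. For 21 of the 26 the high array exceeded the low array of the same number in 6 of 6 pairs, against 5.65% of all probe sets. The exceptions in the pairs were Kif2a, Kif2b, Kif15, Kifc1 and Ckap2, and for Anln and Tacc3 the ESC fractions overlapped although all pairs were above 0.

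Among the cytokinesis proteins the largest difference was that of Prc1, which crosslinks the antiparallel microtubules of the central spindle. Prc1 measured 7.97, 7.97 and 7.68 in ESC low, 8.45, 8.77 and 8.64 in ESC high, 7.97, 8.00 and 8.02 in iPSC low and 8.70, 8.63 and 8.71 in iPSC high. In ESC the lowest high array, at 8.45, stood above the highest low array, at 7.97, and in iPSC 8.63 stood above 8.02. Prc1 rose by a log2 difference of 0.72 ± 0.08, 1.64-fold (limma, adjusted p = 0.000547).

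Racgap1, the GTPase-activating subunit of centralspindlin, measured 7.56, 7.55 and 7.61 in ESC low, 8.01, 8.12 and 7.88 in ESC high, 7.76, 7.71 and 7.75 in iPSC low and 8.06, 8.08 and 7.99 in iPSC high. No high array reached down to a low array. The difference was 0.36 ± 0.06, 1.29-fold (limma, adjusted p = 0.00731). The other 2 cytokinesis genes did not pass: Ect2, the RhoA exchange factor that centralspindlin recruits, differed by 0.18 ± 0.06 (limma, adjusted p = 0.164), and Anln, the anillin scaffold of the contractile ring, by 0.23 ± 0.07 (limma, adjusted p = 0.11).

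Kif23, the motor subunit of centralspindlin, measured 7.79, 7.74 and 7.87 in ESC low, 8.04, 8.11 and 8.22 in ESC high, 7.87, 7.93 and 8.01 in iPSC low and 8.42, 8.36 and 8.31 in iPSC high. The groups did not overlap within a cell type, and the difference was 0.38 ± 0.06, 1.3-fold (limma, adjusted p = 0.00638). Kif4, a chromokinesin that binds Prc1 and limits the length of the central spindle, measured 6.57, 6.62 and 6.63 in ESC low, 7.07, 7.21 and 7.17 in ESC high, 6.60, 6.64 and 6.83 in iPSC low and 7.24, 6.98 and 7.10 in iPSC high. The iPSC low array of replicate 4, at 6.83, came closest to the high arrays, and the difference was 0.48 ± 0.07, 1.4-fold (limma, adjusted p = 0.00327). 3 more motors of the central spindle and midbody did not pass (Kif14 0.28 ± 0.07, adjusted p = 0.0558; Kif20a 0.22 ± 0.06, adjusted p = 0.0897; and Kif20b 0.25 ± 0.07, adjusted p = 0.0819, all limma). Their high arrays nevertheless lay above their low arrays in both cell types. With replicate number as a block within cell type, Kif14 passed as well and 14 genes were called, while 523 of all probe sets were higher and 417 lower.

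Kif11 is the tetrameric motor that pushes spindle poles apart. It measured 8.15, 8.12 and 8.24 in ESC low, 8.52, 8.73 and 8.68 in ESC high, 8.17, 8.12 and 8.07 in iPSC low and 8.72, 8.66 and 8.64 in iPSC high. The low arrays stayed at or below 8.24 and the high arrays at or above 8.52, and the difference was 0.51 ± 0.06, 1.43-fold (limma, adjusted p = 0.00102). Kif15, which can take over pole separation from Kif11, measured 7.83, 7.72 and 7.66 in ESC low, 7.75, 7.75 and 7.68 in ESC high, 7.81, 7.86 and 7.78 in iPSC low and 7.85, 7.97 and 7.85 in iPSC high. Its fractions overlapped in ESC and in iPSC, with a difference of 0.03 ± 0.06 (95% interval -0.09 to 0.16; limma, adjusted p = 0.84). Kifc1, a minus-end motor that draws poles together, measured 6.31, 6.11 and 6.32 in ESC low, 6.10, 6.30 and 6.45 in ESC high, 6.10, 6.17 and 6.53 in iPSC low and 6.42, 5.55 and 6.25 in iPSC high. Its iPSC high array of replicate 3, at 5.55, was the lowest of all 12, and the difference was -0.08 ± 0.14 (95% interval -0.38 to 0.23; limma, adjusted p = 0.853). The chromokinesin Kif22 did not pass either (0.33 ± 0.09; limma, adjusted p = 0.0704).

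Kif18b, which destabilises astral microtubules together with Kif2c, measured 7.66, 7.72 and 7.76 in ESC low, 8.03, 8.41 and 8.28 in ESC high, 7.87, 7.76 and 7.93 in iPSC low and 8.48, 8.37 and 8.48 in iPSC high. All 6 high arrays were at or above 8.03, and all 6 low arrays at or below 7.93. The difference was 0.56 ± 0.07, 1.47-fold (limma, adjusted p = 0.00202). Kif18a, its paralog at kinetochore microtubule plus ends, measured 7.24, 7.33 and 7.06 in ESC low, 7.54, 7.83 and 7.71 in ESC high, 7.15, 7.32 and 7.24 in iPSC low and 7.75, 7.67 and 7.74 in iPSC high. The low arrays of Kif18a spread from 7.06 to 7.33 in ESC, and the high arrays began at 7.54. Its difference was 0.48 ± 0.07, 1.4-fold (limma, adjusted p = 0.00437).

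Kif2c, the depolymerising motor that corrects faulty kinetochore attachments, measured 7.85, 7.90 and 7.98 in ESC low, 8.23, 8.48 and 8.38 in ESC high, 8.02, 7.90 and 8.09 in iPSC low and 8.43, 8.33 and 8.47 in iPSC high. The fractions were separate in both cell types, and the difference was 0.43 ± 0.07, 1.35-fold (limma, adjusted p = 0.00516). Its paralog Kif2a, a depolymerase of spindle poles that also works outside mitosis, measured 7.37, 6.99 and 7.14 in ESC low, 6.94, 7.06 and 6.92 in ESC high, 7.20, 7.32 and 7.14 in iPSC low and 6.99, 7.11 and 7.05 in iPSC high. Kif2a did not pass, at -0.18 ± 0.07 (limma, adjusted p = 0.255), and its fractions overlapped in ESC. Kif2b, the other paralog, lay between 1.86 and 2.17 on all arrays and differed by -0.04 ± 0.07 (limma, adjusted p = 0.83).

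**Figure D2:**
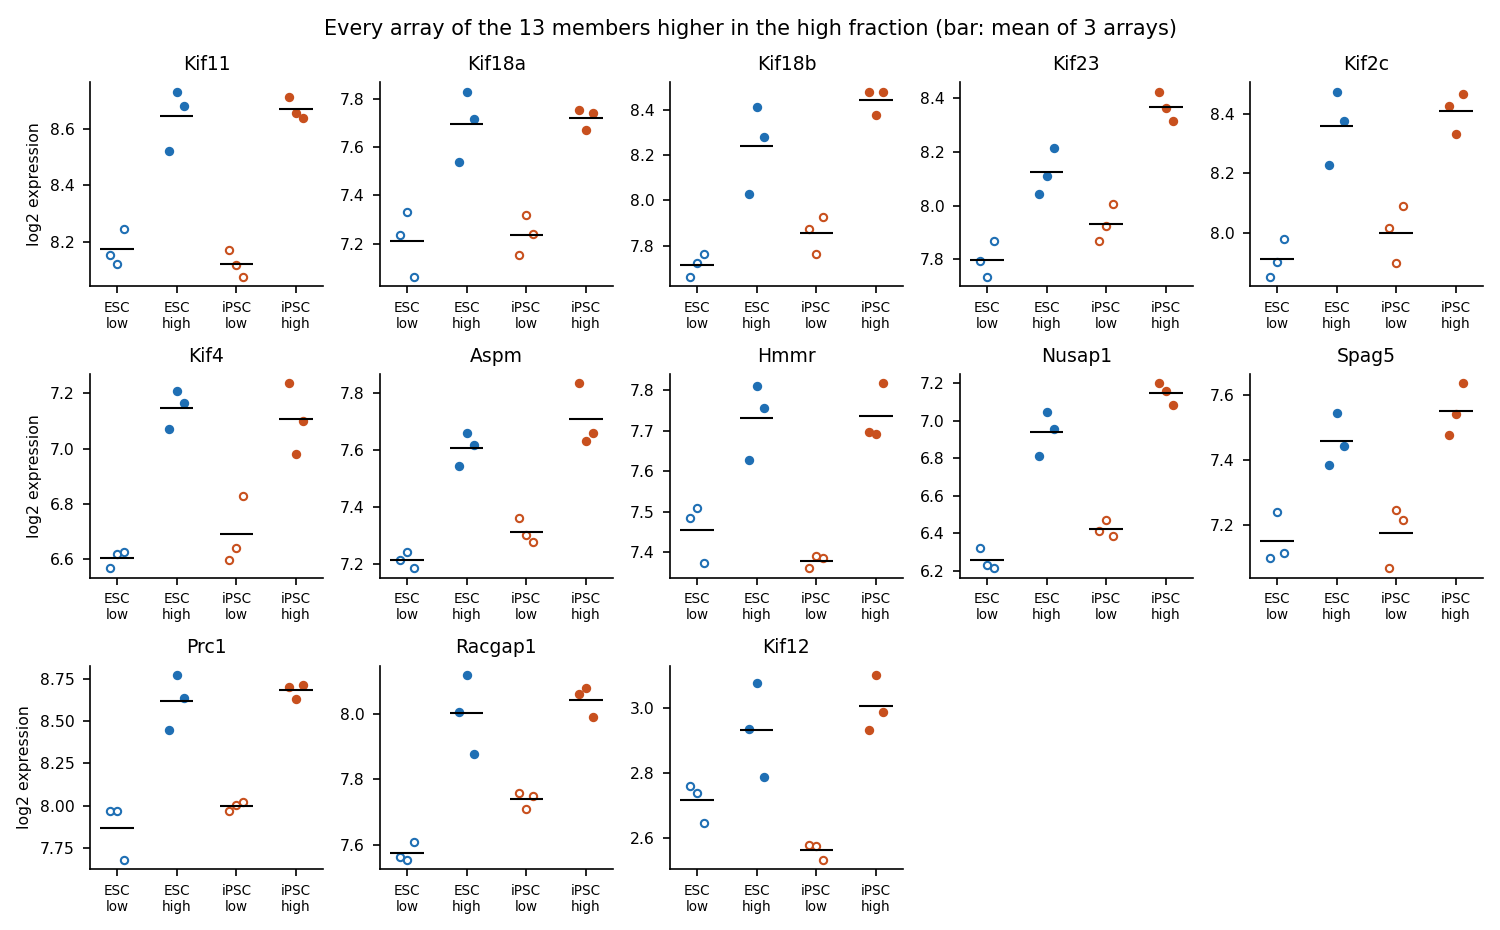
Log2 expression (y axis, a scale of its own for each gene) of the 13 genes that rose, on each of the 12 arrays, with ESC in blue, iPSC in orange, low open and high filled, and a bar at the mean of 3 arrays. Within each cell type no filled point falls below an open one in these 13 genes.

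Of the spindle assembly proteins, Nusap1, which binds and bundles microtubules near chromosomes, measured 6.32, 6.23 and 6.21 in ESC low, 6.81, 7.04 and 6.96 in ESC high, 6.41, 6.47 and 6.38 in iPSC low and 7.20, 7.16 and 7.08 in iPSC high. The lowest high array, at 6.81, stood above the highest low array, at 6.47. Nusap1 rose by 0.70 ± 0.06, 1.63-fold (limma, adjusted p = 0.00024).

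Aspm, which holds microtubule minus ends at the poles, measured 7.21, 7.24 and 7.18 in ESC low, 7.54, 7.66 and 7.62 in ESC high, 7.36, 7.30 and 7.28 in iPSC low and 7.83, 7.63 and 7.66 in iPSC high. Its ESC low arrays were tight, from 7.18 to 7.24, and the difference was 0.39 ± 0.06, 1.31-fold (limma, adjusted p = 0.00477). Spag5 (astrin), a protein of attached kinetochores and spindles, measured 7.10, 7.24 and 7.11 in ESC low, 7.38, 7.54 and 7.44 in ESC high, 7.06, 7.25 and 7.21 in iPSC low and 7.48, 7.54 and 7.64 in iPSC high. The ESC low array of replicate 3, at 7.24, came nearest to the high arrays, and the difference was 0.34 ± 0.07, 1.27-fold (limma, adjusted p = 0.0155). Hmmr, which helps to place Tpx2 on the spindle, measured 7.48, 7.51 and 7.37 in ESC low, 7.63, 7.81 and 7.76 in ESC high, 7.36, 7.39 and 7.39 in iPSC low and 7.70, 7.69 and 7.82 in iPSC high. Its difference was 0.32 ± 0.06, 1.25-fold (limma, adjusted p = 0.0169).

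Tpx2, which activates the kinase Aurka on microtubules, did not pass (0.23 ± 0.06; limma, adjusted p = 0.0794). Tacc3 and the microtubule polymerase Ckap5, which bridge the fibres between poles and kinetochores, differed by 0.21 ± 0.07 and 0.18 ± 0.05 (limma, adjusted p = 0.168 and 0.117). Ckap2, a spindle microtubule protein, stood at -0.0037 (95% interval -0.18 to 0.17; limma, adjusted p = 0.99).

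Hmmr lost its call without ESC high replicate 3 and without iPSC high replicate 4. Kif22 passed without ESC low replicate 4 (0.39; limma, adjusted p = 0.0258). When limma's moderation followed an intensity trend, 21 genes rose, the 8 additions being Anln, Ckap5, Ect2, Kif14, Kif20a, Kif20b, Kif22 and Tpx2. Of all probe sets, 449 were then higher and 290 lower.

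Of the kinesins outside mitosis, Kif12, known from kidney tubules and liver epithelium, was the one that passed. Kif12 measured 2.76, 2.74 and 2.65 in ESC low, 2.94, 3.08 and 2.79 in ESC high, 2.58, 2.58 and 2.53 in iPSC low and 2.93, 3.10 and 2.99 in iPSC high. The lowest ESC high array, at 2.79, was close to the highest ESC low array, at 2.76, whereas the iPSC arrays were further apart. Its difference was 0.33 ± 0.07, 1.26-fold (limma, adjusted p = 0.0216), and it lost its call without ESC low replicate 4, ESC high replicate 2 or 3, iPSC low replicate 4, or iPSC high replicate 3 or 4. The deposited values hold no detection calls, so whether these low levels lie above background is unknown.

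The other 23 did not pass, and their differences ran from -0.39 for Kif5c to 0.16 for Kif17. Kif13a, a vesicle motor, was the other gene of this class whose fractions separated in both cell types (0.16 ± 0.06; limma, adjusted p = 0.2). Kif5c, a heavy chain of conventional kinesin, measured 5.22, 4.99 and 4.96 in ESC low, 5.10, 4.16 and 4.96 in ESC high, 5.05, 4.89 and 4.91 in iPSC low and 4.73, 4.45 and 4.29 in iPSC high. It lay at -0.39 ± 0.14 (limma, adjusted p = 0.208), below 0 in 6 of 6 numbered pairs, as did Kif1a, the axonal carrier of synaptic vesicle precursors (-0.29 ± 0.16; limma, adjusted p = 0.419). Pairs that are all below 0 occurred in 7.06% of all probe sets and in 3.92% of the 51 genes. The widely expressed heavy chain Kif5b was near 0 (-0.06 ± 0.06, 95% interval -0.20 to 0.07; limma, adjusted p = 0.681). Of the kinesin-2 subunits that drive transport in cilia, Kif3a differed by -0.18 ± 0.08, Kif3b by 0.02 ± 0.09 and Kif3c by 0.07 ± 0.08 (limma, adjusted p = 0.305, 0.954 and 0.719). Kif7, the ciliary tip kinesin of Hedgehog signalling, differed by 0.05 ± 0.06 (limma, adjusted p = 0.765). Kif21a and Kif21b, Kif26a and Kif26b, and Kif13b ranged from -0.30 to 0.02, and Kif5a, the neuronal heavy chain, was at -0.14. The pseudogene Kif4-ps lay between 1.64 and 2.24 and differed by 0.04 ± 0.09 (limma, adjusted p = 0.863), while Kif4 rose by 0.48.

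Paralogs were also compared on the same array, where a shift common to the whole array cancels. The log2 ratio of Kif2c to Kif2a was 0.49, 0.91 and 0.84 in ESC low, 1.29, 1.41 and 1.46 in ESC high, 0.82, 0.57 and 0.95 in iPSC low, and 1.44, 1.22 and 1.42 in iPSC high. No low array reached a high array. The ratio was higher in the high fraction by 0.61 (0.64 in ESC, 0.58 in iPSC), in 6 of 6 pairs. An exact two-sided permutation of the fractions within cell type gave p = 0.005, the smallest that its 400 regroupings allow (adjusted p = 0.035 over 14 contrasts). Kif2b lay below the lower quartile of probe set means, so a ratio to it would restate the difference of Kif2c and is not read here. The adjustment over 14 contrasts still counts the ratio of Kif2c to Kif2b, which had the same exact permutation p = 0.005. That tie lowers the adjusted p of Kif2c to Kif2a, so no conclusion is drawn from the adjusted value. The ratio to Kif2a describes unequal change of the pair on these arrays, not that one stayed the same.

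In contrast to this set, Kif18b and Kif18a both rose, and their ratio moved by 0.07 (exact permutation p = 0.30, adjusted p = 0.455 over 14 contrasts). The ratio of Kif20a to Kif20b moved by -0.02 (exact permutation p = 0.71, also 0.71 adjusted). Kif3a against Kif3c moved by -0.25, 5 of 6 pairs being below 0, with an exact permutation p = 0.025 that did not hold after adjustment (0.117). Apart from Kif2c to Kif2b, the other 9 contrasts, within the Kif2, Kif3, Kif5, Kif13, Kif21 and Kif26 families, had exact permutation p-values from 0.07 to 0.705.

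**Figure D3:**
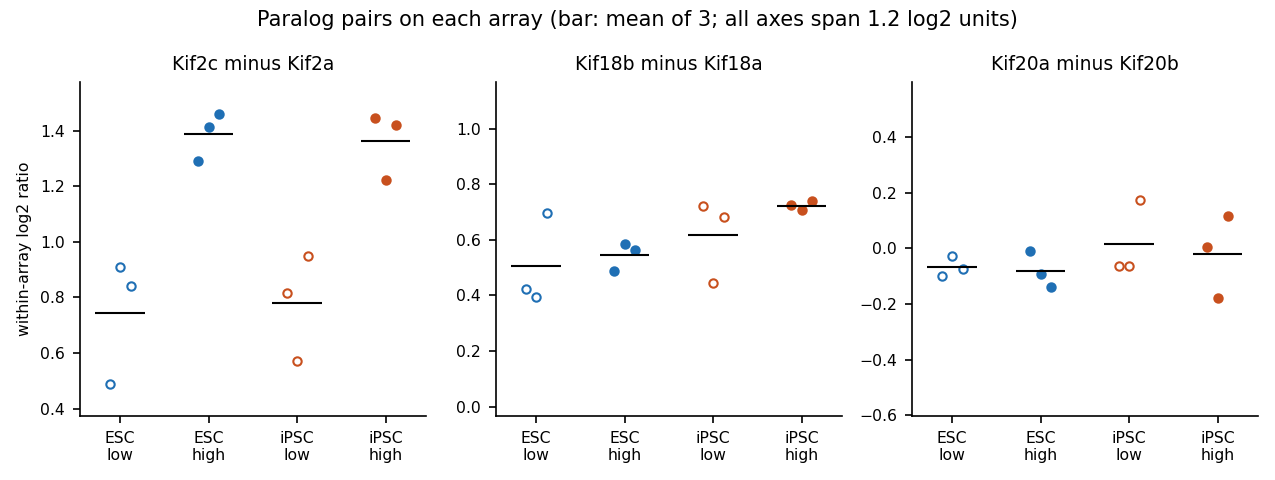
Within-array log2 ratio (y axis, each spanning 1.2 log2 units) of 3 paralog pairs in the 4 groups, 1 point per array and a bar at the mean of 3. Kif2c over Kif2a separates the fractions in both cell types, from 0.49 to 0.95 in the low arrays and from 1.22 to 1.46 in the high arrays, whereas the other pairs overlap.

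Within ESC alone, 4 genes rose and 0 fell, against a background of 0.305% higher and 0.0516% lower. They were Prc1 (0.75 ± 0.11), Nusap1 (0.68 ± 0.09), Kif4 (0.54 ± 0.10) and Kif11 (0.47 ± 0.09), with limma adjusted p = 0.0124, 0.00963, 0.0378 and 0.0425. At an unadjusted p under 0.05, 21 of the 51 genes passed in either direction, against 8.29% of all probe sets. The median of the 26 mitotic genes was 0.27, and 22 of them were above 0. With the replicate block, or with arrays centred on their medians, Prc1 and Nusap1 were the 2 that passed, and Kif4 and Kif11 were lost. Of all probe sets, the block called 146 higher and 31 lower and centring 71 and 14, against 77 and 13 in the main fit. Leaving out any 1 ESC array also removed Kif4 and Kif11 (and Prc1 without ESC high replicate 3). A fit on the 6 ESC arrays alone called 0 of these genes, with 36 of all probe sets higher and 3 lower. The spread is estimated over all 12 arrays, so the iPSC arrays count here too: the calls of Kif4 and Kif11 went when the high array of replicate 4 or the low array of replicate 3 was dropped, and Kif11 went when the low array of replicate 4 or the high array of replicate 2 or 3 was.

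Within iPSC, 4 genes rose and 0 fell, against a background of 0.349% higher and 0.198% lower. They were Nusap1 (0.73 ± 0.09), Prc1 (0.68 ± 0.11), Kif18b (0.59 ± 0.10) and Kif11 (0.55 ± 0.09), with limma adjusted p = 0.00995, 0.0182, 0.0277 and 0.0182. Prc1, Nusap1 and Kif11 passed in each cell type separately. At an unadjusted p under 0.05, 22 of the 51 genes passed, against 12.7% of all probe sets. The median of the 26 mitotic genes was 0.29. Without iPSC low replicate 3 or 4, or iPSC high replicate 2 or 3, Nusap1 alone passed. Over all probe sets 9 to 39 were then higher and 4 to 21 lower, against 88 and 50 in the main fit. Without iPSC high replicate 4 none of these genes passed, and of all probe sets 0 were higher and 1 lower. Without ESC high replicate 4 Kif12 and Kif23 passed as well, with 125 probe sets higher and 63 lower. A fit on the 6 iPSC arrays alone kept Nusap1 and Prc1, with 64 of all probe sets higher and 36 lower.

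The difference between these effects was tested directly, since a gene past the threshold in one cell type need not differ from the other. For 0 of the 51 genes did the effect in iPSC differ from that in ESC (limma; 0 also at an unadjusted p under 0.05, where 4.36% of all probe sets lay, and 0% of all probe sets after adjustment). The intervals were wide, with a median SE of 0.15. Kif4 was at -0.13 (95% interval -0.43 to 0.17), Kif18b at 0.07 (-0.25 to 0.39) and Kif12, which had the smallest p, at 0.23 (-0.06 to 0.52; unadjusted p = 0.115, limma). The widest gap was that of Kif26a, an atypical kinesin, at 0.48 (-0.19 to 1.15).

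**Figure D4:**
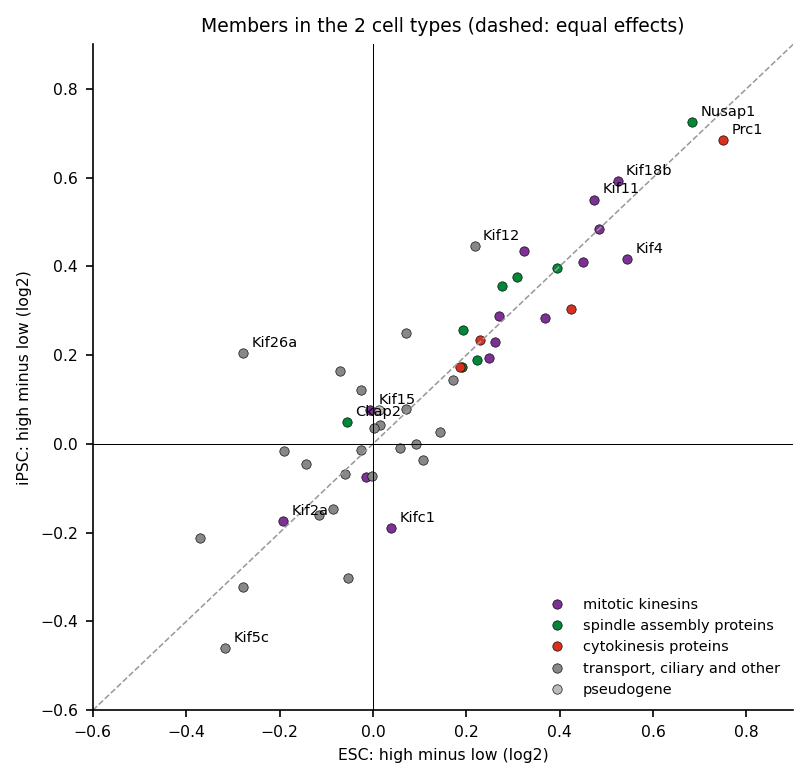
High minus low log2 difference of each of the 51 genes in ESC (x axis) and in iPSC (y axis), coloured by role, with a dashed line of equal effects. Prc1 and Nusap1 lie at the upper end in both cell types, and Kif12, Kif26a and Kifc1 lie away from the line with intervals of the difference that include 0.

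Between the cell types, averaged over the fractions, 0 of the 51 genes passed (limma), against a background of 2.87% (0.916% higher in iPSC and 1.96% lower). At an unadjusted p under 0.05, 9 of the 51 passed, against 14.7% of all probe sets. The smallest p belonged to Tacc3, which measured 7.63, 7.78 and 7.78 in ESC low, 7.78, 7.95 and 8.13 in ESC high, 7.54, 7.52 and 7.49 in iPSC low and 7.71, 7.66 and 7.76 in iPSC high. All iPSC low arrays of Tacc3 lay below all ESC low arrays, and iPSC minus ESC was -0.23 ± 0.07 (limma, adjusted p = 0.122). Kif23 (0.19 ± 0.06) and Nusap1 (0.19 ± 0.06) were above 0 without passing (limma, adjusted p = 0.146 and 0.158).

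Other genes of the same machinery were read from lists written with results of these data known. Of 6 mitotic kinases and chromosomal passenger genes, 4 rose: Aurka (0.85 ± 0.09), Aurkb (0.68 ± 0.07), Incenp (0.60 ± 0.06) and Plk1 (0.58 ± 0.07), with limma adjusted p = 0.000448, 0.000448, 0.000593 and 0.00134. Aurka is activated by Tpx2 on the spindle, and Aurkb and Incenp belong to the passenger complex. The remaining passenger genes Cdca8 and Birc5 differed by 0.22 ± 0.07 and 0.03 ± 0.08 (limma, adjusted p = 0.139 and 0.894).

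Of 14 measured genes of RhoA and the contractile ring, 1 rose, the RhoA GTPase-activating gene Arhgap11a (0.42 ± 0.07; limma, adjusted p = 0.00943), and 0 fell. RhoA itself (Rhoa 0.04 ± 0.06) and its effector citron kinase (Cit 0.22 ± 0.08) did not pass (limma, adjusted p = 0.819 and 0.181). Of 7 relatives outside the symbol rule, Cenpe, the kinetochore kinesin that moves chromosomes to the equator, rose by 0.34 ± 0.07 and Ckap2l by 0.33 ± 0.08 (limma, adjusted p = 0.0207 and 0.0485). Kifc5b, a close relative of Kifc1, differed by 0.37 ± 0.14 (limma, adjusted p = 0.211), and probes of such near copies can share signal.

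None of 11 abscission genes, 8 augmin subunits, 10 genes of the gamma-tubulin ring, 12 genes of microtubule ends, dynein and stathmin, or 9 measured tubulins passed in either direction. Their medians were -0.04, -0.07, -0.03, 0.06 and 0.11. Cep55, which recruits the abscission machinery to the midbody, was at 0.04 ± 0.09, and Haus6 of augmin at -0.27 ± 0.08 (limma, adjusted p = 0.86 and 0.0892).

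Genes of the G1/S transition and of S phase, which act in the start or course of DNA replication, were read in the same samples. Of 15 in a list chosen with their direction known, 4 fell and 0 rose, with a median of -0.10: Ccne2 (-0.74 ± 0.09), Ung (-0.51 ± 0.09), Cdc6 (-0.46 ± 0.08) and Slbp (-0.32 ± 0.07), with limma adjusted p = 0.00102, 0.0104, 0.00734 and 0.0267. Their summed linear level was 8741 to 8973 in ESC low, 8013 to 8630 in ESC high, 8587 to 8694 in iPSC low and 7605 to 7910 in iPSC high. The part of cell cycle phase in the rise of the mitotic genes was not tested.

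Promoter windows of 300 bases, 250 before the start and 50 after, were in the RefSeq table for 43 of the 51 genes, 6 of them with over 1 window. TTTGAA, on either strand, was in a window of 10 of 12 mitotic genes that rose (83.3%), 9 of 12 mitotic genes that did not pass (75%), 3 of 19 other kinesins (15.8%) and 20.2% of 27025 genes. The first 2 sets differed by 1 gene. CCAAT was in 9 of 12 (75%), 7 of 12 (58.3%), 7 of 19 (36.8%) and 41.1%. Both stood in 1 window in 9 of 12 (75%), 6 of 12 (50%), 2 of 19 (10.5%) and 7.97%. TTTAAA was in 2 of 12, 2 of 12, 0 of 19 and 14.9%, and TTCCCGC in 0 of 12, 1 of 12, 1 of 19 and 5.29%. Sites of different motifs may share bases, and each was counted.

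In the 9 genes that rose and hold both motifs (Aspm, Hmmr, Kif11, Kif18b, Kif23, Kif4, Prc1, Racgap1 and Spag5), the first base of TTTGAA in the first listed window lay from 19 bases before the start (Kif11) to 19 after it (Kif4). Within 30 bases of the start in any window, a distance chosen after the sites were seen, it was in 9 of 12 genes that rose (75%), 6 of 12 that did not pass (50%), 1 of 19 other kinesins (5.26%) and 3.72% of all genes. The window of Kif2c has its site at base -103 from the start, and that of Kif2a has none. A match describes the letters in these windows and is no measured binding site.

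**Figure D5:**
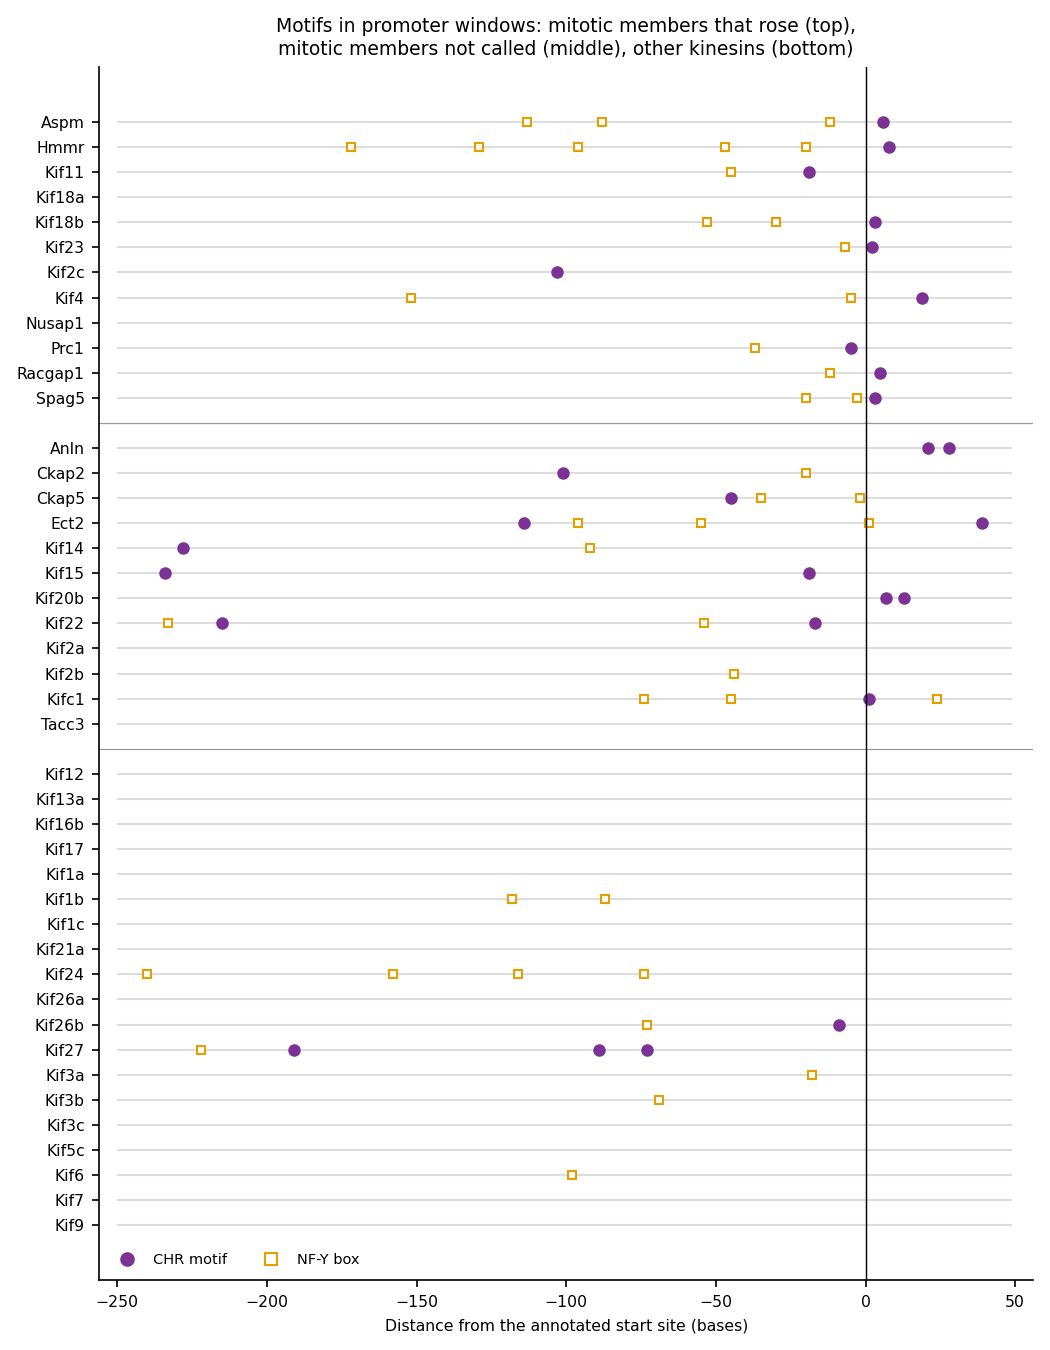
Position of TTTGAA (CHR motif, filled circles) and CCAAT (NF-Y box, open squares) relative to the annotated start (x axis, bases; negative is upstream) in the first promoter window of the 43 genes that have one. Filled circles crowd near 0 in the top block, the mitotic genes that rose, apart from Kif2c at -103. In the middle block, the mitotic genes that did not pass, some lie near 0 and others as far upstream as -234 (Kif15). They are in 2 of the 19 other kinesins in the bottom block.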

How the data were processed

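The authors deposited 1 table of log2 expression values, with 12 array columns and 25206 probe sets. They came from RMA in affy 1.36.1 under R 2.15.1, according to the submitters' processing notes. This step subtracts background, forces the arrays to 1 distribution and summarises each probe set, which can remove a shift common to most genes. Chip definition and genome build: not given in the sources used here. Detection calls were absent from the table, and the number of arrays limits the precision.

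Symbols came from the platform annotation: 23185 probe sets had 1 symbol, 0 several and 2021 none. Matching Entrez gene numbers to a RefSeq gene table changed 0 symbols. Kntc1 was left out by the rule. The genes and lists were chosen with earlier results of these data known. Values of every array are given for genes past the threshold and for 5 picked after their values were seen (Kif2a, Kif15, Kifc1, Kif5c and Tacc3). Paralog sets were compared as contrasts, and the others are given by range, count or difference.

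The test was limma 3.58.1 in R 4.3.3, with 1 mean per group over all 12 arrays, no block, moderated variances and Benjamini-Hochberg adjustment over 25206 probe sets, with significance at an adjusted p under 0.05. High was set against low in ESC, in iPSC and on average, those effects against each other, and iPSC against ESC. Within-array ratios of paralogs were tested by exact permutation. Alternatives were median centring, an intensity trend, a filter at the lower quartile, a replicate block, single cell types and leaving out each array. The fit was tested on simulated data. Python 3.11.15 and matplotlib 3.10.9 made the figures.

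Pairing by replicate number was checked on the residuals from the group means. Residuals of low and high arrays with equal number in 1 cell type correlated at 0.107 to 0.341, all above those with other numbers (0.0026 at most), so the numbers were taken as pairs within each cell type, which is inferred and not labelled. Across cell types equal numbers correlated at -0.09 to 0.13 and were not taken as pairs. Unequal numbers across cell types correlated at -0.16 to 0.17. The highest of these exceeded the iPSC pairs of replicates 2 (0.107) and 3 (0.127), so the pairing in iPSC is weakly marked. Residuals cancel within a group, so high values for equal numbers also lower those for other numbers in the same cell type.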

Additional observations from a re-analysis of the deposited data

How the results depend on the processing

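Over both cell types, 13 genes rose. The count was 13 with centred arrays, 14 with the filter on low values, 14 with the replicate block and 11 to 13 without 1 array. An intensity trend gave 21. Of all probe sets, the filter gave 430 higher and 271 lower, beside 403 and 228 in the main fit. Without 1 array, 261 to 444 were higher and 118 to 251 lower. In ESC the 4 calls became 2 with centred arrays, 2 with the replicate block, 9 with an intensity trend, 0 on the ESC arrays alone and 1 to 4 without 1 array. The trend gave 106 of all probe sets higher and 17 lower in ESC, beside 77 and 13 in the main fit. Centring gave 71 and 14, and the replicate block 146 and 31. Without 1 array, 17 to 98 were higher and 1 to 18 lower. In iPSC the 4 calls became 9 with an intensity trend, 8 with the filter, 2 on the iPSC arrays alone and 0 to 6 without 1 array, and stayed within 1.5 times with centring (3) and the block (4). Of all probe sets, the trend gave 121 higher and 74 lower in iPSC, and the filter 123 and 71, beside 88 and 50. Centring gave 70 and 85 there, and the block 142 and 94. Without 1 array, 0 to 148 were higher and 1 to 63 lower. The difference of effects and iPSC minus ESC gave 0 calls under every alternative run. Apart from the calls named here and in the results, the replicate block changed no call of these 51 genes. Fits on 6 arrays have fewer residual degrees of freedom; the cause of the other moves was not tested.

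Of 813 recomputed average differences of the 51 genes, 756 kept their direction and side of the threshold, 8 lost the call (Hmmr and Kif12), 11 gained it and 38 changed sign, all of genes that did not pass. Calls within 1 cell type were lost in 28 of 68 fits of the 4 genes called in ESC (Kif11 in 14 of 17, Kif4 in 11, Prc1 in 2 and Nusap1 in 1) and in 19 of 68 of the 4 called in iPSC (Kif18b in 7 of 17, Kif11 in 6, Prc1 in 5 and Nusap1 in 1). With centred arrays, which lower every average difference by 0.04, Kif13b moved to -0.0152, Kif15 to -0.0052, Kif16b to -0.0046, Kif1c to -0.0106 and Kif3b to -0.0213. Without 1 array, differences ran from -0.0632 to 0.0347 for Ckap2, -0.0388 to 0.0619 for Kif13b, -0.0012 to 0.0594 for Kif16b, -0.0158 to 0.0829 for Kif19a, -0.0306 to 0.0959 for Kif1c, -0.196 to 0.0365 for Kif21b, -0.154 to 0.102 for Kif26a, -0.0296 to 0.116 for Kif27, -0.0277 to 0.0905 for Kif3b, -0.0195 to 0.0882 for Kif4-ps, -0.246 to 0.0086 for Kif5a, -0.0557 to 0.0238 for Kif6, -0.150 to 0.0896 for Kif9 and -0.162 to 0.0551 for Kifc1. As an alternative chosen after seeing the data, the change of the ratio of Kif2c to Kif2a was recomputed without each array; it ran from 0.55 to 0.65, with an unadjusted exact permutation p of 0.005 each time. With 3 arrays per group and no detection calls, small differences of dim genes could not be resolved.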

Other observations

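The genes next to the 13 that rose, 1 on each side in the reference gene order, were mostly not past the threshold. Of 26 measured neighbours 3 were higher and 1 was lower in the high fraction (limma, adjusted p under 0.05). Both are larger shares than the 1.6% higher and 0.905% lower over all probe sets, the lower one through 1 gene. The neighbours were drawn from measured protein-coding genes only, so these shares are not of like sets. The median log2 difference of the neighbours was 0.0070. The 4 were chosen for naming after their values were seen. Gdpd2, a glycerophosphodiester phosphodiesterase gene beside Kif4, rose by 1.18 ± 0.13, against 0.48 for Kif4. F13b, a coagulation factor subunit gene beside Aspm, rose by 0.72 ± 0.12, and Rskr, a kinase gene beside Spag5, by 0.64 ± 0.11. Rccd1, beside Prc1, fell by 0.38 on the log2 scale (adjusted p = 0.00702). The adjusted p-values of the 3 that rose were 0.000731, 0.00686 and 0.00983 in the order given.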
